A study of Homo sapiens with 4 samples.

Results

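The genes described here are 39 genes of autophagy and the lysosome, measured in QGP-1 cells, an established line from a human pancreatic neuroendocrine tumour. They comprise 5 cargo receptors, 22 genes of the autophagosome machinery, 2 transcription factors of lysosome biogenesis and 10 lysosomal proteins. Each gene was matched to the array by its symbol in the platform's probe table. All 39 were found, on 58 of the 28264 probes, among 19090 named genes. QGP-1 cells received medium conditioned by pancreatic stellate cells (PSC medium, 2 arrays) or were mock treated (mock, 2 arrays). Stellate cells are the matrix-depositing mesenchymal cells of the pancreas. The cells came from RPMI-1640 culture medium containing 10% fetal bovine serum, and both treatments lasted 24 h at 0.1% serum. A single line was used, and nothing in the labels states that replicate arrays came from separate cultures. The p-values therefore measure only the spread between these arrays, which may be technical. Neither the origin of the stellate cells nor the handling of the mock medium is stated in the labels.

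In autophagy a membrane closes around cytoplasmic cargo to form an autophagosome, which then fuses with a lysosome. The ULK1 kinase complex starts the process, a lipid kinase complex built on BECN1 marks the membrane, WIPI proteins read that mark, and the ATG conjugation enzymes attach LC3 and GABARAP proteins to it. Cargo receptors such as p62 (gene SQSTM1) bind both LC3 and ubiquitinated cargo, and are degraded along with that cargo. TFEB and TFE3 control many genes of the lysosome and of autophagy. In endocrine cells lysosomes also break down surplus secretory granules. The arrays measured RNA only, and autophagic flux was not measured.

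Levels are quantile-normalized log2 intensities, and every difference is PSC medium minus mock on that scale. Summed deposited intensity ranged from 135782105 to 173359996 over the 4 arrays. Of 6 neuroendocrine markers, 5 lay above the median gene level of 10.13, the chromogranin gene CHGA and the somatostatin gene SST among them, while the synaptophysin gene SYP averaged 9.44 with PSC medium and 9.60 in mock cells. Their summed linear level was 477121 and 431448 on the PSC medium arrays, against 564052 and 498174 on the mock arrays. In that sum SST weighed most, as the brightest of the 6 (17.88 with PSC medium, 18.32 in mock cells). Of the 6 differences 4 were negative and 2 positive, those of CHGB (0.39) and ENO2 (0.24), and none passed. For 10 stellate cell and fibroblast markers the summed linear level was 5266 and 5715 on the PSC medium arrays, against 5601 and 4515 on the mock arrays. In that list only COL1A1 lay above the median gene level, 7 of the 10 differences were negative, and 1 gene, DES, the dim desmin gene, fell (-1.48 ± 0.17, adjusted p = 0.0243). For 4 acinar markers the sum was 1717 and 1854 with PSC medium and 1402 and 1484 in mock cells. None of the 4 lay above the median gene level or passed, and 2 differences were positive, PRSS1 (0.54) and CEL (0.27), and 2 negative. The part of other cells in the results was not tested, and an array level cannot tell a change in the share of cells from a change in RNA per cell.

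With PSC medium 3 of the 39 genes rose: SQSTM1, the receptor p62, LAMP3, an inducible lysosomal membrane glycoprotein gene, and WIPI1, a reader of the lipid mark on forming autophagosomes. None of the 39 fell in the limma fit, where 9 members were higher and 4 lower by an unadjusted p below 0.05. That is 33.3% of the members, beside 22.5% of all genes, of which 1879 were higher and 2420 lower. The 3 calls were 7.69% of the members, beside 2.14% of all genes called in either direction, 1.17% called higher and 0.974% called lower. The members were chosen with earlier results of these data known, so these shares cannot be read as an unbiased excess. Of all genes 223 were called higher and 186 lower. That split was 35 and 78 without normalization and 29 and 62 with median centring. The other 36 members had differences between -0.62 and 0.68, and their smallest adjusted p was 0.101. For 31 of these 36 the 95% interval of the difference lay within 1 on either side of 0, so a change of 2-fold or more lay outside it. The intervals of the remaining 5 passed 1 or -1. The median difference was -0.02 over the members and -0.01 over all genes. The groups did not overlap for 25 of the 39 members (64.1%), beside 53.5% of all genes. Among genes above the median level, where 36 of the 39 members lay, the share was 59.1%.

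**Figure D1:**
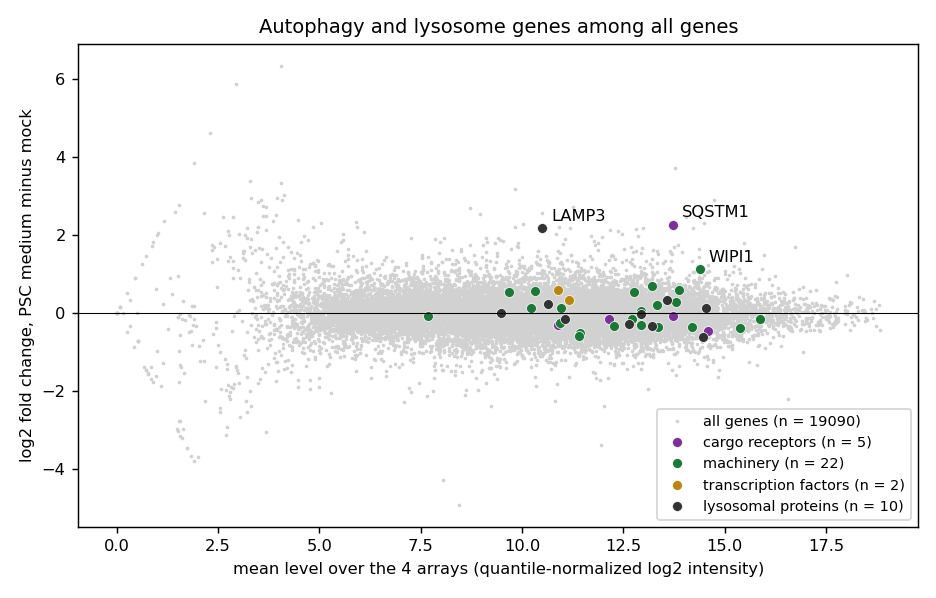
Difference between PSC medium and mock (y axis, log2) against the mean level over the 4 arrays (x axis, log2 intensity) for 19090 genes in grey and the 39 autophagy and lysosome genes in colour by class. SQSTM1 and LAMP3 lie above 2 and WIPI1 above 1, and the other 36 members lie between -0.62 and 0.68.

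Of the 5 cargo receptors only SQSTM1 passed the test. Its level was 14.80 and 14.93 on the PSC medium arrays, against 12.57 and 12.63 on the mock arrays. Both PSC medium arrays stood above both mock arrays, by 2.17 at the nearest, a distance larger than the spread within either pair. The gene rose 4.80-fold (log2 fold change 2.26 ± 0.16 SE, 95% interval 1.88 to 2.65, adjusted p = 0.0111), and its difference ranked 64 of 19090 by size. Before any normalization its deposited intensities were 29711 and 31497 with PSC medium and 5207 and 7025 in mock cells, so the groups were apart in the authors' values too. SQSTM1 was called in each of the 8 alternative fits that kept all 4 arrays. In the 4 fits that left out 1 array its call was lost, as were nearly all calls over all genes. Its difference stayed between 2.19 and 2.33 there, and 1 residual degree of freedom remained.

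The 4 other receptors were lower with PSC medium in the point estimate, and none passed. NBR1, the receptor most like p62 in its domains, had levels of 13.58 and 13.81 with PSC medium and 13.61 and 13.92 in mock cells, and these groups overlapped (difference -0.07, 95% interval -0.53 to 0.39). TAX1BP1, which recruits ubiquitinated aggregates, had 14.50 and 14.25 with PSC medium and 14.95 and 14.72 in mock cells. Its groups did not overlap, and its difference of -0.46 ± 0.18 did not pass (adjusted p = 0.207). CALCOCO2, the receptor NDP52 of bacteria and mitochondria, had 10.87 and 10.61 with PSC medium and 11.12 and 11.01 in mock cells (-0.32 ± 0.17, adjusted p = 0.328). OPTN, optineurin, a receptor of damaged mitochondria, had a difference of -0.16 ± 0.18 (adjusted p = 0.635). A second OPTN probe of similar brightness had -0.50 ± 0.16, with groups that did not overlap, and did not pass either (limma over all probes, adjusted p = 0.167). The intervals of these 4 genes ran from -0.91 to 0.39 in all, and none of them reached the lower bound of the SQSTM1 interval. As a class the receptors had a median difference of -0.16.

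**Figure D2:**
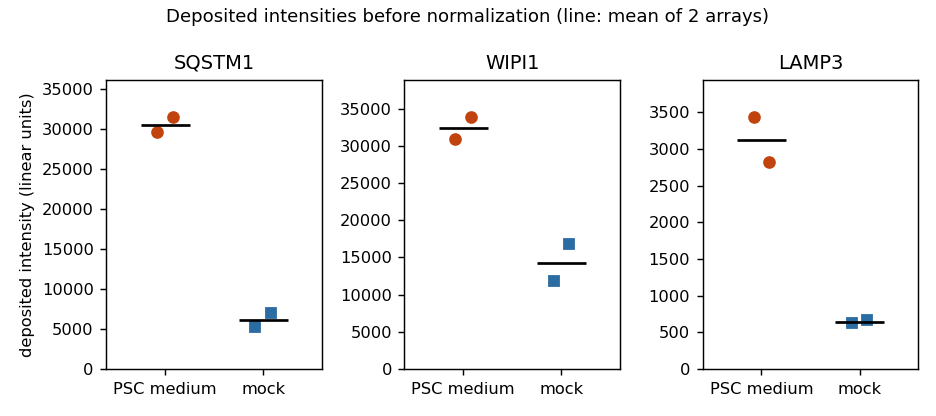
Intensity as deposited, before normalization (y axis, linear units from 0), of the 3 genes that passed, for the 2 PSC medium arrays (circles) and the 2 mock arrays (squares), with the mean as a line. The lowest PSC medium array lies above the highest mock array for SQSTM1 (29711 against 7025), WIPI1 (30909 against 16826) and LAMP3 (2824 against 661).

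Promoter sequence was looked up by symbol in the RefSeq table of GRCh38.p14, which gave 1 start for 33 of the 39 genes. The 250 bases before the start were searched on both strands for TCACGTGA, the core of the CLEAR element that TFEB and TFE3 bind, for TGATGNAA, the core of the C/EBP-ATF element that ATF4 binds, and for TGACNNNGC, the core of the antioxidant element that NRF2 binds. The members with no window were not searched, LAMP3 among them. The windows of SQSTM1 and WIPI1, shown because both genes rose, held none of these, so they carry no capitals. Both windows lie just before the outermost start of the gene's RefSeq span, and any start further inside the gene was not searched. A missing match says only that these letters are not in this window, and nothing about other starts.
SQSTM1, chr5:179806143-179806392, plus strand: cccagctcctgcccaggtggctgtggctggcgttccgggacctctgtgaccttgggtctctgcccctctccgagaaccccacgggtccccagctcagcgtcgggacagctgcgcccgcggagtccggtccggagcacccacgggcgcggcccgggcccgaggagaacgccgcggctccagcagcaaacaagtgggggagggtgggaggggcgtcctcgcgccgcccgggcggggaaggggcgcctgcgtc
WIPI1, chr17:68457497-68457746, minus strand: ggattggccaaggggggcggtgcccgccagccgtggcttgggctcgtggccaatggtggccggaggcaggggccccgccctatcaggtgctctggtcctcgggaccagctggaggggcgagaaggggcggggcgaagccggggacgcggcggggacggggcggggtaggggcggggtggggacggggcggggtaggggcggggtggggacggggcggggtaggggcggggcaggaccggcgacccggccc

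WIPI1 was the one gene of the 22 in the machinery that passed. Its level was 14.85 and 15.03 with PSC medium and 13.76 and 13.90 in mock cells. The groups were apart by 0.96 at their nearest arrays. It rose 2.17-fold (1.12 ± 0.16, 95% interval 0.71 to 1.52, adjusted p = 0.0402). The call depended on the settings, since without normalization the adjusted p became 0.182. It was 0.108 after median centring, 0.0539 after cyclic loess and 0.0639 when every probe was tested alone. The difference was at least 1.02 in each alternative run. WIPI2, which brings ATG16L1 to the membrane, had a difference of -0.37 ± 0.16 on its brightest probe (adjusted p = 0.232). Its dimmer probes had 0.43, 0.08 and -0.19, so the sign differed between probes.

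Genes of the complexes that start autophagy and mark its membrane lay on both sides of 0 and did not pass. ULK1, the initiating kinase, had 12.28 and 11.92 with PSC medium and 12.53 and 12.33 in mock cells (-0.33 ± 0.19, adjusted p = 0.369). Its paralog ULK2 had a difference of -0.52 ± 0.16 (adjusted p = 0.139), and ATG13, a subunit of the same complex, one of 0.11 ± 0.18. BECN1, beclin 1, had 13.23 and 13.61 with PSC medium against 13.11 and 13.33 in mock cells, with overlapping groups (0.20 ± 0.20, adjusted p = 0.599). Of the alternative partners of beclin 1 in the lipid kinase complex, UVRAG was the higher with PSC medium and ATG14 the lower. UVRAG had 13.38 and 13.71 with PSC medium and 12.81 and 12.92 in mock cells (0.68 ± 0.18, adjusted p = 0.104). ATG14 had 12.68 and 12.92 with PSC medium and 13.08 and 13.12 in mock cells (-0.30 ± 0.17, adjusted p = 0.345). Neither partner's groups overlapped, and neither passed. The lipid transfer protein gene ATG2A (-0.60 ± 0.19, adjusted p = 0.148) and the lipid scramblase gene ATG9A (-0.36 ± 0.18, adjusted p = 0.307) were lower in the estimate without passing.

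The 5 LC3 and GABARAP genes, whose proteins decorate the autophagosome membrane, did not pass. MAP1LC3B, which encodes the LC3 protein most used as an autophagosome marker, had 14.46 and 13.89 with PSC medium and 13.64 and 13.52 in mock cells. PSC medium array 1 stood well above the other 3 arrays, and the standard error was accordingly wide (0.60 ± 0.23, adjusted p = 0.198). GABARAPL1 had 10.97 and 11.08 with PSC medium against 10.63 and 11.18 in mock cells, where the mock arrays lay on either side of the PSC medium arrays (0.12 ± 0.22, adjusted p = 0.802). MAP1LC3A (-0.17 ± 0.16), GABARAP (-0.15 ± 0.16) and GABARAPL2 (-0.38 ± 0.20) were close to 0 or lower. Close paralogs can share hybridization, and probe sequences were not used here.

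No gene of the conjugation enzymes that attach LC3 to the membrane passed. ATG16L1, which sets the site of conjugation, had 10.67 and 10.57 with PSC medium and 10.06 and 10.04 in mock cells (0.57 ± 0.15, adjusted p = 0.109). The activating enzyme gene ATG7 (0.53 ± 0.17, adjusted p = 0.15) and the ubiquitin-like ATG12 (0.52 ± 0.16, adjusted p = 0.128) had differences of similar size. For all 3 the groups did not overlap and the test was not passed, and a dimmer probe of ATG7 and of ATG12 pointed the other way. With the mean of a gene's probes the differences were 0.009 for ATG7 and 0.15 for ATG12. The conjugating enzyme gene ATG3 had 0.27 ± 0.20, and ATG5, the partner of ATG12, had -0.09 ± 0.17 at a level below the median gene level. The LC3 proteases ATG4A (0.05 ± 0.22) and ATG4B (-0.26 ± 0.20) had overlapping groups. Over the 22 machinery genes 11 differences were positive and 11 negative, with a median of -0.02.

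**Figure D3:**
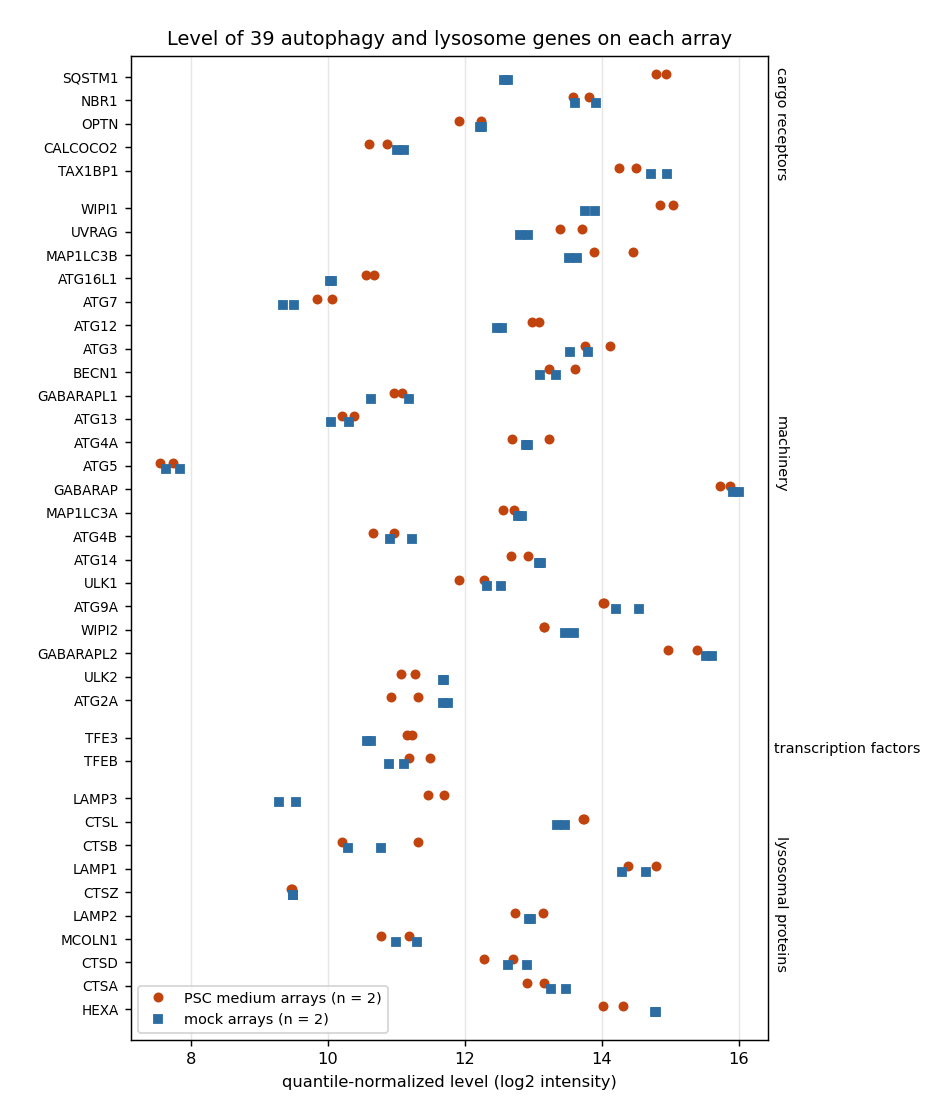
Quantile-normalized level (x axis, log2 intensity) of each of the 39 genes on the 2 PSC medium arrays (circles) and the 2 mock arrays (squares), grouped by class and ordered within a class by the difference. The pairs stand clearly apart for SQSTM1, WIPI1 and LAMP3, while most other genes have pairs that lie close together or overlap.

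Both transcription factor genes were higher in the estimate, and neither passed. TFE3 had 11.15 and 11.24 with PSC medium and 10.63 and 10.57 in mock cells. Its groups did not overlap (0.60 ± 0.15, adjusted p = 0.101), and this was the smallest adjusted p of the members that missed the threshold. TFEB had 11.18 and 11.49 with PSC medium and 11.12 and 10.89 in mock cells (0.33 ± 0.19, adjusted p = 0.356). The 2 groups of TFEB were only 0.06 apart at their nearest arrays.

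Of the 10 lysosomal genes LAMP3 rose and the other 9 did not pass. LAMP3 encodes a membrane glycoprotein that, unlike LAMP1 and LAMP2, is found in few tissues, dendritic cells among them, and is induced by stress. It had 11.70 and 11.46 with PSC medium and 9.53 and 9.29 in mock cells. The groups were 1.93 apart at their nearest arrays, and mock cells lay below the median gene level. The gene rose 4.49-fold (2.17 ± 0.18, 95% interval 1.73 to 2.61, adjusted p = 0.0122). It was called in the 7 alternative fits with 4 arrays other than the filter on level, which it passed only through its PSC medium values. In the 4 fits with 3 arrays its call was lost, as were nearly all calls over all genes. The genes of the constitutive membrane proteins LAMP1 and LAMP2 did not pass. LAMP1 had 14.38 and 14.80 with PSC medium and 14.30 and 14.64 in mock cells (0.12 ± 0.22, 95% interval -0.41 to 0.65). LAMP2, which also serves chaperone-mediated autophagy, had 12.73 and 13.14 with PSC medium and 12.97 and 12.94 in mock cells (-0.02 ± 0.19, 95% interval -0.49 to 0.45). Both genes had overlapping groups, and neither interval reached that of LAMP3.

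No hydrolase gene among the members passed. HEXA, the alpha subunit of beta-hexosaminidase, had 14.31 and 14.02 with PSC medium and 14.80 and 14.77 in mock cells. Its difference of -0.62 ± 0.17 (adjusted p = 0.114) was the lowest of all members, while a dimmer HEXA probe had -0.07 with overlapping groups. CTSL, a cysteine protease gene, had 13.72 and 13.75 with PSC medium and 13.47 and 13.34 in mock cells (0.33 ± 0.16, adjusted p = 0.274). CTSD, the aspartic protease gene, had 12.71 and 12.28 with PSC medium and 12.90 and 12.63 in mock cells, with overlapping groups (-0.27 ± 0.21, adjusted p = 0.495). Neither protease nor HEXA passed. The remaining hydrolases were the carboxypeptidase genes CTSA (-0.33 ± 0.18) and CTSZ (-0.01 ± 0.15) and the cysteine protease gene CTSB (0.22 ± 0.38), whose standard error was the widest of all members. MCOLN1, the lysosomal calcium release channel gene, had 11.19 and 10.78 with PSC medium and 11.30 and 10.998 in mock cells (-0.16 ± 0.21, adjusted p = 0.698). The class had a median difference of -0.02.

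**Figure D4:**
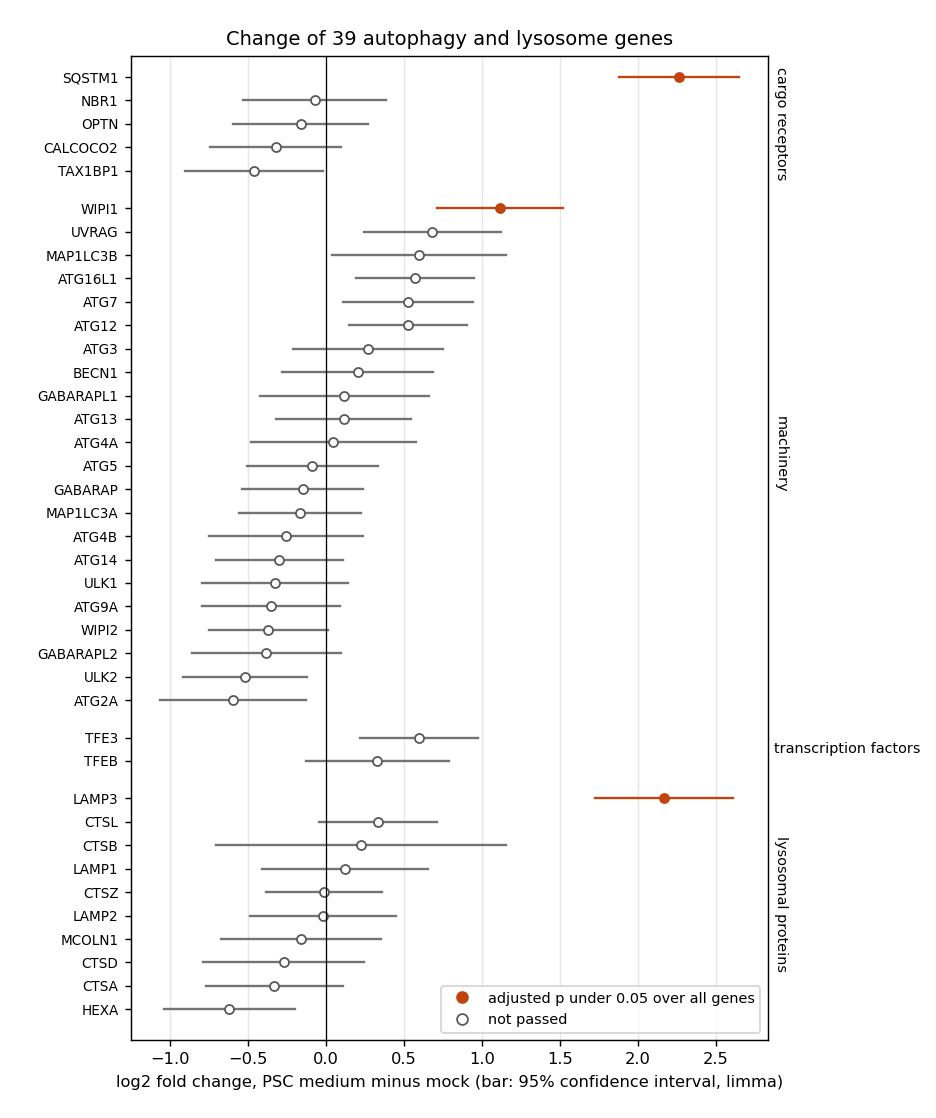
Difference between PSC medium and mock with its 95% interval from limma (x axis, log2) for each of the 39 genes, by class, with filled points for an adjusted p under 0.05 over all genes. SQSTM1, WIPI1 and LAMP3 are filled and their intervals begin at 1.88, 0.71 and 1.73, while no other interval reaches above 1.16.

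The CLEAR core was found in the windows of 3 members, all lysosomal and none of them called: LAMP1, CTSA and MCOLN1. That is 9.09% of the 33 members with a window, beside 1.29% of 15159 genes on the array with one. The antioxidant element core was found in 7 members (21.2%, beside 11.7% of genes), namely CALCOCO2, MAP1LC3B, LAMP1, CTSA, CTSD, CTSL and CTSZ, and the C/EBP-ATF core in 0 members, beside 2.25% of genes. The last 50 bases before the start of the 3 genes with a CLEAR core are shown 5′ to 3′ beside their small differences above, with the CLEAR core in capitals. MCOLN1 holds the element at 2 places. A match is a description of the letters and not of binding.
LAMP1, chr13:113297189-113297238, plus strand: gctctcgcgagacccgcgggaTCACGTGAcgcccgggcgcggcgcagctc
CTSA, chr20:45891285-45891334, plus strand: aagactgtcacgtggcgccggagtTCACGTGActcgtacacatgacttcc
MCOLN1, chr19:7522574-7522623, plus strand: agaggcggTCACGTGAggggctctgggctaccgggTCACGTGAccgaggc

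For 26 members, the 3 that rose among them, the array had 1 probe, so no second probe could be set beside the change. The other 13 had 32 probes in all, and for 7 of these genes every probe had a difference of the same sign. UVRAG had 0.68 on its brightest probe and 0.79 on the other, and ULK2 had -0.52 and -0.72. The sizes were further apart for HEXA (-0.62 and -0.07) and OPTN (-0.16 and -0.50). For 6 genes the signs were mixed. ATG7 had 0.53 and -0.51, ATG12 had 0.52, -0.45 and 0.37, and the 4 probes of WIPI2 ran from -0.37 to 0.43. When every probe was tested alone, 2 of the 58 member probes passed, beside 0.633% of all probes. They were those of SQSTM1 (adjusted p = 0.0325) and LAMP3 (adjusted p = 0.0342).

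**Figure D5:**
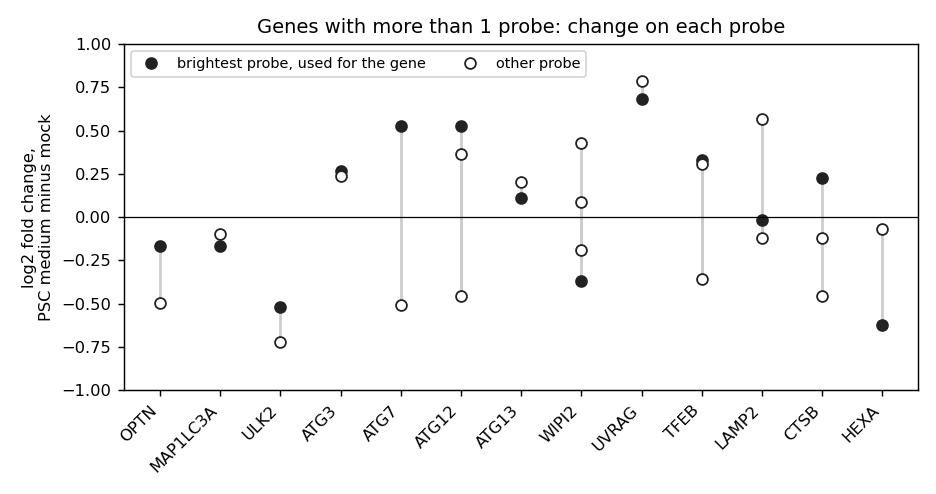
Difference between PSC medium and mock (y axis, log2) on each probe of the 13 genes with more than 1 probe (x axis), with the brightest probe filled and other probes open. The probes of ATG7, ATG12, WIPI2, TFEB, LAMP2 and CTSB lie on both sides of 0.

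Further genes of autophagy and the lysosome, 113 measured of 119 listed, gave 2 higher and 4 lower (median difference -0.02). The 6 others were not analysed here. Among all 19090 genes 2.14% were called, 1.17% higher and 0.974% lower. Of 29 further lysosomal enzymes and transporters 2 rose and 2 fell. The cathepsin gene CTSV, a close paralog of CTSL, had 9.86 and 9.91 with PSC medium and 8.35 and 8.31 in mock cells (1.55 ± 0.15, adjusted p = 0.0158), and the aminopeptidase gene CTSH had 10.85 and 11.18 against 9.63 and 9.78 (1.31 ± 0.18, adjusted p = 0.0375). The cathepsin gene CTSO had 9.59 and 9.45 with PSC medium and 11.001 and 10.83 in mock cells (-1.40 ± 0.16, adjusted p = 0.0251). LIPA, the acid lipase gene, had 14.01 and 13.86 with PSC medium and 14.96 and 15.18 in mock cells (-1.13 ± 0.17, adjusted p = 0.0412). In the 7 alternative fits with 4 arrays other than the filter on level, CTSV was called in 6, and CTSO and CTSH in 3 each.

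Of 14 receptors of organelles RETREG1 alone passed (unadjusted limma p below 0.05 for 1 higher and 2 lower, beside 22.5% of all genes). It is a receptor for the endoplasmic reticulum and had 10.62 and 10.54 with PSC medium and 11.62 and 11.50 in mock cells (-0.98 ± 0.16, adjusted p = 0.0444). Of 20 further machinery genes EPG5 alone passed (unadjusted, 2 were higher and 6 lower). EPG5 is a tether for fusion with the lysosome and had 12.06 and 11.93 with PSC medium and 12.98 and 12.93 in mock cells (-0.96 ± 0.16, adjusted p = 0.0452). Both fell, and RETREG1, EPG5 and LIPA missed the threshold without normalization, with median centring, with cyclic loess, with the mean of a gene's probes and with the replicate number as a block. RETREG1 and EPG5 also lay below 2-fold.

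No gene passed in limma among 14 fusion genes (unadjusted p below 0.05 for 2 higher and 1 lower), 15 subunits of the vacuolar ATPase that acidifies lysosomes (1 and 1) or 21 genes of nutrient control (5 and 2). Over all genes 22.5% had an unadjusted p below 0.05 in that fit. The leading fusion genes were the SNARE genes YKT6 (0.73 ± 0.17, adjusted p = 0.087) and VAMP7 (-0.50 ± 0.19, adjusted p = 0.201). The leading ATPase genes were ATP6V0E1 (0.60 ± 0.19, adjusted p = 0.145) and ATP6AP1 (-0.44 ± 0.16, adjusted p = 0.172). RRAGC, a Rag GTPase that recruits mTORC1 to lysosomes, had 0.93 ± 0.20 (adjusted p = 0.0759), and RHEB, the GTPase that activates mTORC1, had 0.82 ± 0.18 (adjusted p = 0.0769).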

How the data were processed

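Gene expression was measured on 4 one-colour arrays, 2 of PSC medium and 2 of mock, with Cy5-labelled amplified RNA, per the labels' protocols. The authors deposited 1 linear intensity, a whole number, for each of 28264 probes on every array. Values below 1 numbered 848 and 175 on the PSC medium arrays and 0 and 30 on the mock arrays, and some lay below 0. Neither the labels nor the table name a scanner, its software or a scaling.

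Because the log2 medians of the arrays spanned 0.325 (limit 0.2), quantile normalization was applied, then a floor of 1 and the log2. The platform's probe table gave gene symbols, checked through Entrez IDs in RefSeq (GRCh38.p14). All 25893 named probes matched, none had several genes and 2371 had none. Each of 19090 genes took its brightest probe. PSC medium and mock were tested against each other by the moderated statistics of limma 3.58.1 under R 4.3.3, two-sided. The Benjamini-Hochberg adjustment ran over all genes at a threshold of 0.05, with 2 residual and 3.97 prior degrees of freedom and no batch or block. An exact permutation test of 2 against 2 arrays cannot give a p below 0.333 and was not run. The number of arrays limits the precision. The procedure was tested on simulated data. Figures used matplotlib 3.10.9 in Python 3.11.15.

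The members, the lists and the rule for named genes were chosen with earlier results of these data known. The rule gives array values for members past the threshold, for the 3 of each class with the smallest p and for 16 genes of known role, and names further genes that passed or, in lists where none did, the 2 with the smallest p. Alternatives covered normalization, an added constant of 50, dim genes, probes, the variance model, thresholds, the replicate number and each array left out.

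Arrays of the same replicate number had a correlation of deviations of 0.069 across genes. The labels give no shared origin for a number, so the numbers were not used as pairs.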

Additional observations from a re-analysis of the deposited data

How the results depend on the processing

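The 3 members called were SQSTM1, LAMP3 and WIPI1. Of the 8 alternative fits with 4 arrays, SQSTM1 and LAMP3 were called in 8 and WIPI1 in 3. On the main fit a threshold of 0.1 could not lose these calls, and an added 2-fold minimum kept all 3. LAMP3 passed the filter on level only through its PSC medium values. The count of members called was 7 with an added constant of 50, 8 with genes below the median level left out and 12 with trended and robust variances. The counts for member probes were 9, 8 and 14 in the same order, and for further pathway genes 16, 15 and 25. For all genes they were 2036, 1579 and 3398, beside 409 of 19090 in the main fit, so the rise was not particular to the members. The filter on level tested fewer: 36 members, 46 member probes, 98 further genes and 9918 genes in all. Counts over all probes were not taken in these settings. UVRAG, TFE3 and HEXA were called in all 3 of these settings. With genes below the median level left out, however, all single genes followed here had the same standard error of 0.2226. That fit used a common variance, so a gene's own spread between arrays did not count in its calls. At an adjusted p under 0.1 the counts were 1546 for all genes, 4 for member probes and 16 for further genes. Without normalization 113 genes and 2 further genes were called. Median centring moved the median difference of all genes to -0.10. The counts were then 91 for all genes, 1 for member probes and 0 for further genes. In limma 10 further genes were higher and 18 lower by unadjusted p below 0.05, beside 1216 and 2628 of all genes. With cyclic loess the counts were 184, 0 (unadjusted, 12 higher and 6 lower) and 3. The mean of a gene's probes gave 93 and 1. The replicate number as a block gave 84 genes, 0 member probes (11 and 8) and 1 further gene, and took the adjusted p of WIPI1 to 0.0674. With 1 array left out nearly all calls over all genes were lost, those of the members among them. The differences of the 3 called members stayed between 1.02 and 2.33. Such fits assume that the lone array varies like the other group.

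The median difference of the machinery was 0.0565 without normalization and -0.074 with median centring, that of the lysosomal class 0.0867 without normalization, and that of the receptors -0.32 with the mean of probes. With 1 array left out these medians ran from -0.10 to 0.011, from -0.0702 to 0.0916 and from -0.40 to -0.15, and that of the transcription factors from 0.37 to 0.56.

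Of 608 values of 51 single genes over the alternatives, 492 kept their sign and side of the threshold, 65 lost a call, 30 gained one and 21 changed sign, the last with adjusted p of at least 0.496. Sign changes were those of NBR1 (0.0131), ATG5 (0.0027), LAMP2 (0.0568) and CTSZ (0.12) without normalization, ATG4A (-0.0203) with median centring, LAMP2 (0.0016) with cyclic loess, and LAMP2 (0.14) and CTSB (-0.12) with the mean of probes. With 1 array left out, values ran from -0.23 to 0.079 for NBR1, -0.19 to 0.0103 for ATG5, -0.0213 to 0.37 for ATG13, -0.22 to 0.31 for ATG4A, -0.16 to 0.39 for GABARAPL1, -0.0845 to 0.33 for LAMP1, -0.21 to 0.19 for LAMP2, -0.33 to 0.78 for CTSB and -0.36 to 0.0409 for MCOLN1. The cause of these changes was not tested. Values at the floor occurred in 160 genes, and 36 of the 39 members lay above the median gene level.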
